A study of Mus musculus with 8 samples.

Results

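Junctional immunoglobulin adhesion molecules were followed in label-retaining and non-retaining biliary cells of the mouse liver. They are 10 genes, read by name out of the 46603 genes in the count table, namely F11r, Jam2, Jam3, Cxadr, Esam, Pecam1, Icam1, Icam2, Vcam1 and Mcam. All 10 were found in the table, and 9 of them were among the 13605 genes that had enough counts to be tested, the exception being Mcam. RNA was sequenced from 8 libraries of sorted liver cells, with 1 EGFP-positive library and 1 EGFP-negative library for each of 4 mice. The animals are named JV602, JV621, JV624 and JV6314, and values per library follow this order throughout. Every mouse was heterozygous for both transgenes (R26rtTA het/H2B-EGFP het), received doxycycline from postnatal day 0 to day 5, and was sorted at 8 weeks of age. Doxycycline turns on a histone fused to EGFP in these mice, and each later cell division dilutes it. In both groups cells were sorted for the epithelial protein EpCAM and against the leukocyte protein CD45, so that EGFP-positive cells are liver label-retaining cells (LLRCs) and EGFP-negative cells are non-LRC cells. The transactivator stands in the ubiquitously active Rosa26 locus and is therefore not restricted to biliary cells, the mice were of mixed background, and hematopoietic cells of such mice can express the fusion without doxycycline.

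Cells that border each other in an epithelium or a vessel wall are held together at junctions, and many of the proteins that bridge the gap there carry immunoglobulin domains outside the cell. One set of them (JAM-A, encoded by F11r, and CAR, encoded by Cxadr) sits at the tight junctions of epithelia such as the bile duct. Another set (ESAM, PECAM-1, ICAM-2 and MCAM) is best known from endothelium, where JAM-B and JAM-C are also found, and the cytokine-inducible ICAM-1 and VCAM-1 serve as docking sites for the integrins of leukocytes.

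The JAM proteins, CAR and ESAM end in a short peptide that binds PDZ domains of scaffold proteins inside the cell, and the bases that encode this end show how close these genes are to each other and how well reads can tell them apart. The last 48 coding bases and the stop codon are given 5′ to 3′ from the GENCODE M21 transcripts of GRCm38, with the last 12 coding bases, those of the PDZ-binding end, in capitals.
F11r: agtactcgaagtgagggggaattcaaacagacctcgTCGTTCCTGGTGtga
Jam2: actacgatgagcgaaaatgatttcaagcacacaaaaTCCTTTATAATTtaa
Jam3: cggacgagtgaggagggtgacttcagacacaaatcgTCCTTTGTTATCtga
Cxadr: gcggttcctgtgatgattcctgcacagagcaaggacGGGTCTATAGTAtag
Esam: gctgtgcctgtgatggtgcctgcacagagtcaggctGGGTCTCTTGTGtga
Cxadr and Esam shared 37 of the 48 bases and 9 of the last 12, and Jam2 and Jam3 shared 27 and 9, while F11r shared 25 and 6 with Jam2, 28 and 6 with Jam3, and 10 and 5 with Cxadr. Over their whole coding sequences F11r and Jam2 were identical at 53.0% of aligned positions, F11r and Jam3 at 54.9%, Jam2 and Jam3 at 54.0%, and Cxadr and Esam at 54.1%. No stretch of 31 coding bases was shared between any of the 10 genes. Over whole transcripts, on which reads were counted, 38 stretches of 31 bases recurred in another member, counted once in each gene that held them. All lay in Pecam1, Icam1 and Vcam1.

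All 10 genes are annotated as protein coding. In GRCm38, F11r (ENSMUSG00000038235) lies on chromosome 1 from 171437535 to 171464603, and Cxadr (ENSMUSG00000022865) and Jam2 (ENSMUSG00000053062) lie on chromosome 16 from 78301489 to 78359774 and from 84774123 to 84825928. Pecam1 (ENSMUSG00000020717) and Icam2 (ENSMUSG00000001029) are close neighbours on chromosome 11, from 106654217 to 106750628 and from 106377656 to 106388075. Chromosome 9 holds Icam1 (ENSMUSG00000037405, 21015985 to 21028817), Jam3 (ENSMUSG00000031990, 27097384 to 27155421), Esam (ENSMUSG00000001946, 37528078 to 37538319) and Mcam (ENSMUSG00000032135, 44134469 to 44142727). Vcam1 (ENSMUSG00000027962) lies on chromosome 3 from 116109949 to 116129688. Reads were counted over exons without regard to strand, and 36.2% of the exon bases of Jam3, 11.7% of those of Icam1 and 9.39% of those of Cxadr also belong to a gene on the other strand, so that reads there cannot be assigned to one of the pair by strand. The main partners of Jam3 and Icam1, Gm48796 and Gm47079, are not in the count table, whereas Btg3, the main partner of Cxadr, is. These overlaps stood at 0.688% or lower in Vcam1 and Mcam.

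Depth ranged from 7860021 to 9851819 counts per LLRC library and from 4670132 to 8056103 per non-LRC library, where 3 counts correspond to 0.291 to 0.626 CPM (counts divided by the library size times 1000000, after TMM scaling). The non-LRC library of JV621 held the fewest detected genes, 14234 against 16042 to 20430 in the other libraries, and the non-LRC library of JV6314 stood apart for 8 markers of pancreatic acinar cells, at a sum of 1918 CPM against 0.294 to 2.51 CPM elsewhere. Xist, which is read from an inactive X chromosome, was read in LLRCs of JV621 alone (120 counts, against 0 elsewhere), while Y-linked genes were read in all libraries. Whether that library holds RNA of its own mouse alone was not tested, and without it the log2 fold changes of Jam2, Pecam1, Icam2 and Esam were −6.20, −5.16, −3.79 and −3.78. Cholangiocyte markers were read in every library, with sums over 16 genes of 116287 to 222890 CPM in LLRCs, against 67578 to 163862 CPM. Nearly all of this was Spp1, and the other 15 markers summed to 4204 to 4399 CPM in LLRCs, against 3329 to 4714 CPM. Epcam, the gene of the sorted protein, stood at 583.5 ± 48.6 CPM in LLRCs (SD, n = 4), 0.08 above non-LRC cells on the log2 scale.

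The genes of the epithelial tight junction did not separate the groups, while 4 of the 6 genes known from endothelium were read at lower levels in every LLRC library than in any non-LRC library. The other 2, Jam3 and Mcam, overlapped between the groups. Jam2, Pecam1, Icam2 and Esam had fitted levels 56.7, 19.3, 14.0 and 11.7 times lower in LLRCs. Their order depends on JV621, since without its non-LRC library the log2 fold change of Jam2 went from −5.83 to −4.03, beside −4.28 for Pecam1, and without its LLRC library that of Pecam1 went from −4.27 to −5.16. None of these differences passed the adjusted threshold of edgeR's quasi-likelihood test with Benjamini-Hochberg adjustment over 13605 genes, where 0 genes in all were called (0.0%) and the smallest adjusted p was 0.0809. At an unadjusted p below 0.05 these 4 genes, of the 9 tested, were lower in LLRCs, beside 3.56% of all tested genes, and no tested member was higher, beside 1.6%. Icam2 and Pecam1 had too few counts in LLRCs to pass the count filter on those libraries alone. They were tested through their non-LRC libraries, so that their direction here is in part set by the filter. The median log2 fold change (LLRC over non-LRC) was −1.65 over the 9 members and −0.01 over all tested genes. Jam2, Pecam1 and Esam also stand in a gene list that the study picked from these libraries, so their direction here is not independent evidence. In bulk samples such as these, fewer cells of a type and less RNA per cell cannot be told apart.

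**Figure D1:**
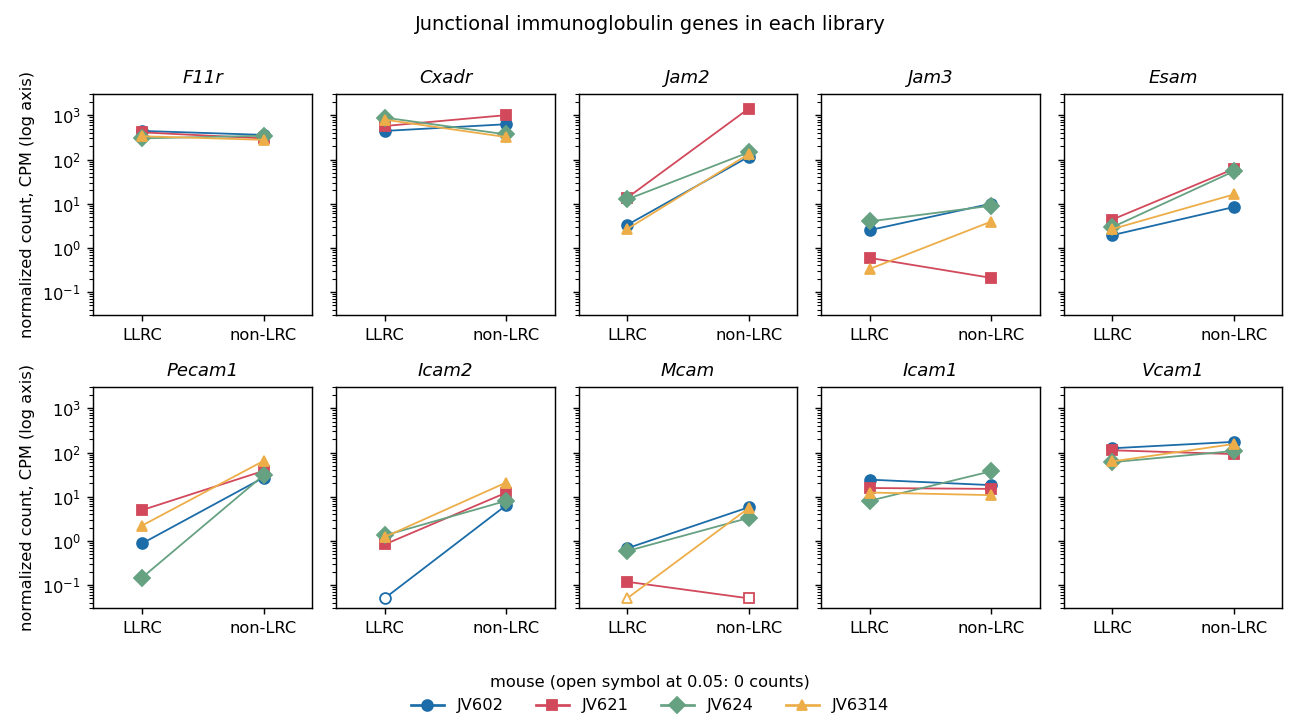
Level of each of the 10 genes in CPM (log axis) in the LLRC and the non-LRC library of each of 4 mice, with a line joining the libraries of a mouse and open symbols, drawn at 0.05 CPM, for libraries with 0 counts. Jam2, Esam, Pecam1 and Icam2 stood lower in all 4 LLRC libraries than in any non-LRC library, whereas F11r, Cxadr, Icam1 and Vcam1 overlapped.

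F11r encodes JAM-A, which assembles epithelial tight junctions. It was read at 444.2, 412.1, 301.1 and 336.9 CPM in the LLRC libraries and at 361.4, 301.3, 346.0 and 279.0 CPM in the non-LRC libraries. The groups overlapped, and LLRCs were higher in 3 of 4 mice. The log2 fold change was 0.21 (95% interval −0.31 to 0.74), with an adjusted p of 1.0 from edgeR's quasi-likelihood test. F11r stood above 97.9% of tested genes by CPM per kilobase of exon in LLRCs and above 97.4% in non-LRC cells.

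Cxadr encodes CAR, the coxsackievirus and adenovirus receptor, which mediates contacts between epithelial cells of the same kind. It was read at 443.9, 573.6, 890.1 and 800.7 CPM in the LLRC libraries and at 629.4, 1012, 371.1 and 322.4 CPM in the non-LRC libraries. LLRCs were lower in JV602 and JV621 and higher in JV624 and JV6314, by −0.50, −0.82, 1.26 and 1.31 on the log2 scale. The log2 fold change was 0.21 (95% interval −0.71 to 1.14), and the spread between mice was larger than the difference of the means.

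Jam2 encodes JAM-B, the partner of JAM-C across cell contacts. Counts of 34, 115, 85 and 24 were read for it in LLRCs, against 922, 6808, 920 and 675 in non-LRC cells, that is 3.30, 13.6, 12.5 and 2.67 CPM against 115.5, 1422, 145.2 and 133.2 CPM. No library of one group came near the other, and 1 non-LRC library, that of JV621, stood far above the rest of its group. The log2 fold change was −5.83 (standard error 1.13, 95% interval −8.39 to −3.27, adjusted p = 0.136 with edgeR's quasi-likelihood test), and the exact two-sided permutation p was 0.029, the smallest that 4 libraries against 4 allow. Without the non-LRC library of JV621 the non-LRC mean was 131.3 ± 15.0 CPM (SD, n = 3) and the log2 fold change −4.03 (edgeR, adjusted p = 0.116). With both libraries of that mouse left out it was −4.42 (edgeR, adjusted p = 0.28).

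Jam3, which encodes JAM-C, was read at low levels in both groups. Its counts were 26, 5, 27 and 3 in LLRCs against 80, 1, 57 and 20 in non-LRC cells, or 2.52, 0.591, 3.97 and 0.333 CPM against 10.02, 0.209, 8.997 and 3.95 CPM. The groups overlapped, with and without the non-LRC library of JV621, which was the highest for Jam2 and the lowest for Jam3. LLRCs were lower in 3 of 4 mice, with a log2 fold change of −1.65 (95% interval −4.08 to 0.78, edgeR adjusted p = 1.0). It was −2.31 without the LLRC library of JV624, and ranged from −2.57 to −1.26 over all alternatives of the fit. These counts are at or near the 3-count limit in several libraries, and 36.2% of the exon bases of Jam3 are shared with a gene on the other strand.

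Within the JAM family, Jam2 took a smaller share in every LLRC library than in any non-LRC library. Levels of different genes were compared per kilobase of exon, as the share of the summed CPM per kilobase of F11r, Jam2 and Jam3. F11r made up 99.2%, 98.5%, 97.2% and 99.6% of the family in the LLRC libraries, and 85.9%, 32.5%, 82.9% and 81.8% in the non-LRC libraries. Jam2 made up 0.324% to 1.78% in LLRCs, against 12.1%, 67.5%, 15.3% and 17.2% in non-LRC cells. F11r was the leading transcript in 7 of the 8 libraries by this measure, and the exception was the non-LRC library of JV621, in which Jam2 led. Jam3 stayed at 1.98% or less in each of the 8 libraries.

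**Figure D2:**
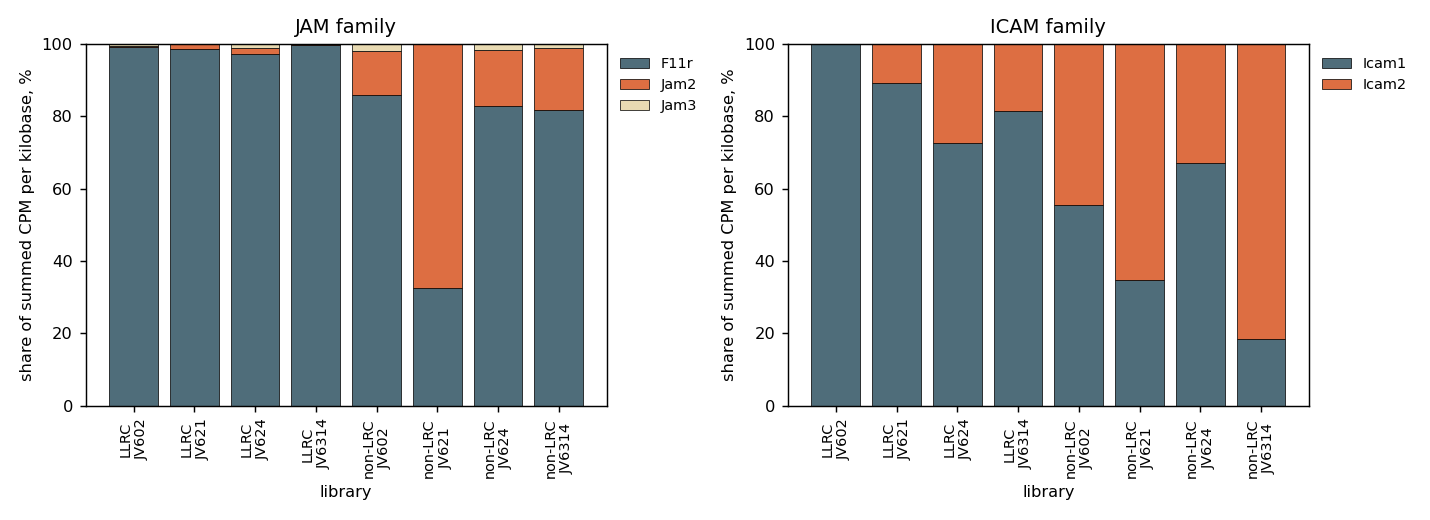
Share of each gene in the summed CPM per kilobase of exon of the JAM family (left) and of Icam1 and Icam2 (right), in %, with a bar for each of the 8 libraries. F11r filled 97.2% or more of the JAM bars in LLRCs, and Jam2 took between 12.1% and 67.5% in non-LRC cells. Icam2 took 27.3% or less of the right-hand bars in LLRCs and 32.8% or more in non-LRC cells.

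Esam encodes the endothelial cell-selective adhesion molecule, which is found at endothelial tight junctions and on platelets. Its counts were 20, 37, 20 and 24 in LLRCs against 67, 293, 343 and 82 in non-LRC cells, or 1.94, 4.38, 2.94 and 2.67 CPM against 8.39, 61.2, 54.1 and 16.2 CPM. The LLRC libraries were tightly grouped, and the non-LRC libraries of JV621 and JV624 were the highest. The fold change of Esam was −3.55 on the log2 scale (standard error 0.70, 95% interval −5.12 to −1.97, adjusted p = 0.143 with edgeR's quasi-likelihood test), with an exact permutation p of 0.029 and LLRCs lower in 4 of 4 mice.

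Pecam1 encodes CD31, which is shared by endothelial cells, platelets and many leukocytes. It was read with 9, 42, 1 and 20 counts in LLRCs against 216, 184, 194 and 327 in non-LRC cells, or 0.872, 4.97, 0.147 and 2.22 CPM against 27.0, 38.4, 30.6 and 64.5 CPM. The non-LRC libraries were similar to each other, and the LLRC library of JV621 was the highest of its group, as it also was for Jam2 and Esam. For Pecam1 the log2 fold change was −4.27 (standard error 0.86, 95% interval −6.22 to −2.32, adjusted p = 0.152 with edgeR's quasi-likelihood test), with an exact permutation p of 0.029. Without the LLRC library of JV621, the one with Xist counts, it was −5.16 (edgeR, adjusted p = 0.29).

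Icam2 encodes a constitutive endothelial ligand of leukocyte integrins. Counts of 0, 7, 9 and 11 in LLRCs stood against 51, 59, 51 and 106 in non-LRC cells, or 0, 0.828, 1.32 and 1.22 CPM against 6.39, 12.3, 8.05 and 20.9 CPM. The groups did not overlap, and the count of 0 in the LLRC library of JV602 allows a level of up to 0.291 CPM, at least 22.0-fold lower than in the non-LRC library of the same mouse. The log2 fold change was −3.81 (standard error 0.98, 95% interval −6.02 to −1.60, adjusted p = 0.359 with edgeR's quasi-likelihood test), with an exact permutation p of 0.029.

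Mcam encodes CD146, which is found on endothelium, pericytes and smooth muscle. LLRCs held 7, 1, 4 and 0 counts of it and non-LRC cells 46, 0, 21 and 28, too few to pass the filter. The non-LRC library of JV621 held no count, which allows up to 0.626 CPM, so that the groups overlapped although 3 non-LRC libraries, at 5.76, 3.31 and 5.53 CPM, lay above all LLRC libraries. The exact permutation p was 0.143, and without the filter the log2 fold change was −3.31 (edgeR's quasi-likelihood test, adjusted p = 0.633).

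**Figure D3:**
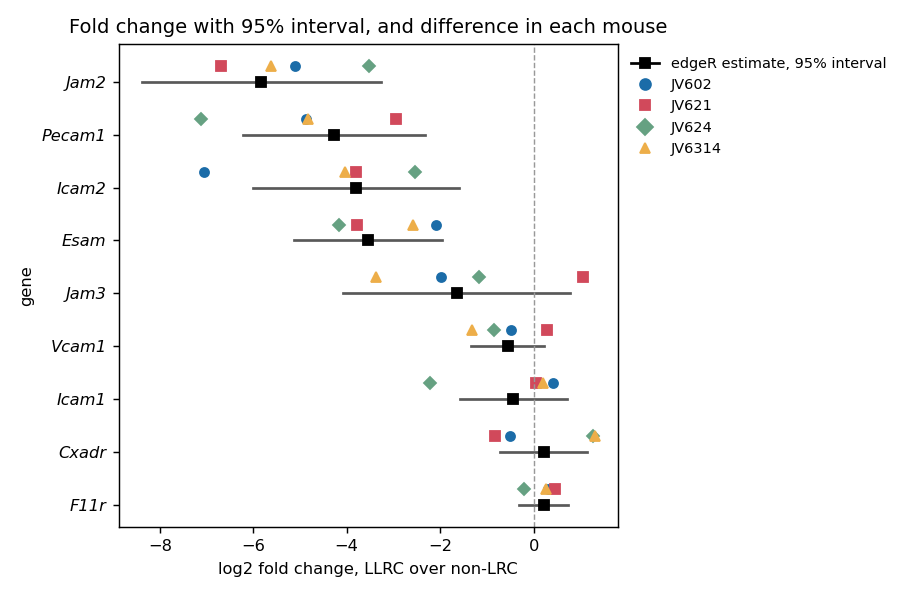
Log2 fold change of LLRC over non-LRC for the 9 tested genes, with black squares for the edgeR estimate, grey lines for its 95% interval and coloured symbols for the difference within each of 4 mice. All 4 mice lay below 0 for Jam2, Pecam1, Icam2 and Esam, and on both sides of 0 for the other 5 genes. The value of JV602 for Icam2 rests on a count of 0.

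Icam1, an inducible ligand of leukocyte integrins, was read at 24.3, 15.7, 8.09 and 12.4 CPM in the LLRC libraries and at 18.3, 15.0, 37.7 and 10.9 CPM in the non-LRC libraries. LLRCs were slightly higher in JV602, JV621 and JV6314 and lower in JV624, by 0.41, 0.06, 0.19 and −2.21 on the log2 scale. The log2 fold change of −0.43 (95% interval −1.58 to 0.72, edgeR adjusted p = 1.0) rested on the non-LRC library of JV624, and was 0.04 without it. A neighbouring gene on the other strand shares 11.7% of the exon bases of Icam1.

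Vcam1, the ligand of the integrin formed by the products of Itga4 and Itgb1, was read at 125.0, 112.5, 60.6 and 63.0 CPM in the LLRC libraries and at 174.6, 92.3, 108.4 and 156.1 CPM in the non-LRC libraries. The groups overlapped, with LLRCs lower in 3 of 4 mice, and the log2 fold change was −0.56 (95% interval −1.35 to 0.23, edgeR adjusted p = 1.0). By CPM per kilobase Vcam1 was the third highest of the 10 genes in LLRCs, at 10.2 ± 3.76 (SD, n = 4), and stood above 70.6% of tested genes.

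Differences between members were tested as ratios of counts within a library, which do not depend on library scaling. Of 7 ratios, 4 did not overlap between the groups. Their exact two-sided permutation p of 0.029 became 0.05 after Benjamini-Hochberg adjustment over the 7, which is at the threshold and not below it. That permutation ignores the pairing by mouse. With the sign-flip test over mice the adjusted p of each of the 4 was 0.175, and that test cannot go below 0.125 unadjusted. Of the numerators, Jam2, Pecam1 and Esam stand in the list that the study picked from these libraries. Jam2 over F11r differed by −5.44 on the log2 scale, LLRC minus non-LRC (−5.88 ± 1.31 against −0.43 ± 1.80, SD, n = 4), and Pecam1 over F11r by −5.15 (−8.22 ± 1.81 against −3.08 ± 0.72). Esam over Cxadr, the pair with the most similar coding ends, differed by −3.47 (−7.81 ± 0.56 against −4.34 ± 1.42), and Icam2 over Icam1 by −3.97 (−4.74 ± 2.90 against −0.77 ± 1.39). The last of these rests in part on the count of 0 in the LLRC library of JV602, to which 0.5 was added. Icam2 over Icam1 was −2.56 without that library, −3.34 with 2 counts added, and −4.705 without the LLRC library of JV624. Jam2 over F11r was −4.55 without the non-LRC library of JV621. With each library left out in turn, Pecam1 over F11r ranged from −5.77 to −4.42 and Esam over Cxadr from −4.10 to −2.95. The other 3 ratios overlapped, although Jam3 over Jam2 was higher in LLRCs in each of the 4 mice (sign-flip test, adjusted p = 0.175). Jam3 over F11r differed by −1.57 (exact permutation, adjusted p = 0.333), or −2.67 without the non-LRC library of JV621 (exact permutation, adjusted p = 0.08). Jam3 over Jam2 differed by 3.87 (exact permutation, adjusted p = 0.12), or 1.88 without the non-LRC library of JV621 and 4.76 without that of JV602. Vcam1 over Icam1 differed by −0.20 (exact permutation, adjusted p = 0.714), and turned to 0.145 without the non-LRC library of JV6314.

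Icam2 made up 0%, 10.8%, 27.3% and 18.4% of the summed CPM per kilobase of Icam1 and Icam2 in the LLRC libraries, and 44.4%, 65.2%, 32.8% and 81.5% in the non-LRC libraries. Icam1 was thus the larger of the pair in every LLRC library, and Icam2 in the non-LRC libraries of JV621 and JV6314.

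Ordered by mean CPM per kilobase of exon in LLRCs, the genes were F11r (140.3), Cxadr (91.5), Vcam1 (10.2), Icam1 (3.47), Jam2 (1.33), Esam (1.04), Jam3 (0.579), Icam2 (0.443), Pecam1 (0.330) and Mcam (0.103). The libraries of F11r and Cxadr overlapped, both lay above Vcam1 in every LLRC library, Vcam1 lay above Icam1, and from Icam1 downwards each gene overlapped with the next. In non-LRC cells the order was F11r (120.9), Cxadr (78.9), Jam2 (75.1), Vcam1 (15.0), Esam (12.2), Pecam1 (6.45), Icam2 (6.26), Icam1 (4.696), Jam3 (1.81) and Mcam (1.09), with every neighbour overlapping. The mean of Jam2 there was set by JV621, and its median was 23.0 CPM per kilobase.

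In all, 4 of the 10 genes did not overlap between the groups, all lower in LLRCs, beside 1.91% of all tested genes that did not overlap in this direction. The same 4 were lower in each of the 4 mice, beside 5.53% of all tested genes. Of these, Icam2 and Pecam1 passed the count filter through their non-LRC libraries. With DESeq2, 3 members were called (Pecam1 at an adjusted p of 1.2e-05, Esam at 3.21e-05 and Icam2 at 0.000738), all lower in LLRCs, beside 1.29% of the genes it tested, and Jam2 received no adjusted p. On unfiltered counts edgeR's exact test called 4 members (Jam2 at 0.00018, Pecam1 at 0.0014, Esam at 0.00276 and Icam2 at 0.021), all lower, beside 0.323% of genes. With limma 0 members were called (0.0% of all genes), and 5 were lower at an unadjusted p below 0.05, Jam3 among them, beside 3.28% of genes. When the quasi-likelihood test was run on unfiltered counts 0 members were called, beside 0.0362% of genes lower, and 5 were lower at an unadjusted p below 0.05, Mcam among them, beside 4.04%.

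Markers of other cell types moved with these results. Of 20 endothelial markers that are no members, 17 were tested, all 17 were lower in LLRCs (16 at an unadjusted p below 0.05 with edgeR's quasi-likelihood test, none adjusted), and their median log2 fold change was −3.69. The summed level of the 20 markers was 47.6 to 92.4 CPM in the LLRC libraries and 303.8, 1481, 726.2 and 989.3 CPM in the non-LRC libraries, and none of the 20 was at 0 in all LLRC libraries. Fold changes on the log2 scale were −3.78 for Kdr, the main receptor of vascular endothelial growth factor, −3.69 for Tek, the angiopoietin receptor, and −3.27 for Cdh5, the cadherin of endothelial junctions (edgeR's quasi-likelihood test, adjusted p = 0.0809, 0.0809 and 0.359). The part of these cells in the levels of Jam2, Esam, Pecam1 and Icam2 was not tested.

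Set against the endothelial sum of the same library, the members covered different ranges. Esam amounted to 3.36% to 4.74% of that sum in LLRCs and to 1.64% to 7.45% in non-LRC cells, and Icam2 to 0% to 2.14% and 0.832% to 2.11%, so that both groups covered overlapping ranges. Pecam1 amounted to 1.83%, 5.38%, 0.168% and 3.89% in LLRCs and to 8.9%, 2.59%, 4.22% and 6.52% in non-LRC cells, again overlapping. Jam2 amounted to 6.92%, 14.7%, 14.3% and 4.67% in LLRCs and to 38%, 96%, 20% and 13.5% in non-LRC cells, with only the non-LRC library of JV6314 within the range of LLRCs. F11r, by contrast, was 343% to 933% of the sum in LLRCs and 20.3% to 119% in non-LRC cells.

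**Figure D4:**
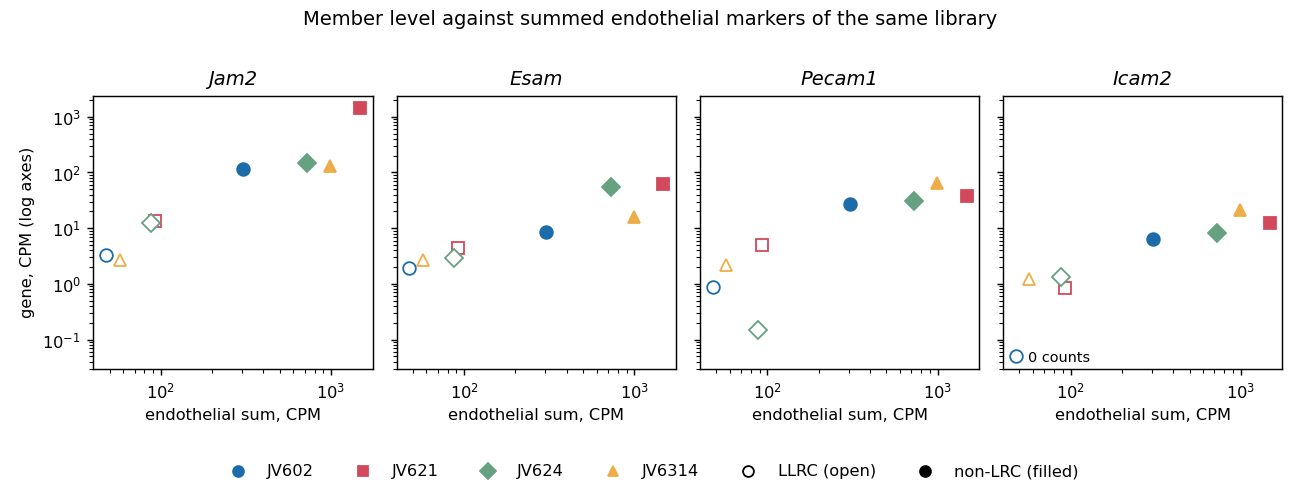
Level of Jam2, Esam, Pecam1 and Icam2 in CPM against the summed CPM of 20 endothelial markers in the same library (both axes log), with open symbols for LLRC and filled symbols for non-LRC libraries of 4 mice. The LLRC libraries lay between 47.6 and 92.4 CPM of endothelial sum and the non-LRC libraries between 303.8 and 1481 CPM. Icam2 had 0 counts in the LLRC library of JV602, drawn at 0.05 CPM.

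Markers of further cell types also moved in part. Stellate cell and fibroblast markers (7 of 10 tested, 6 lower in LLRCs, 2 of them at an unadjusted p below 0.05, and 1 higher, median log2 fold change −2.39) summed to 275.6 to 908.6 CPM in LLRCs, against 703.7 to 2882 CPM. Among them Lrat, the retinol-esterifying enzyme of stellate cells, did not overlap between the groups, at 5.92 ± 2.12 CPM in LLRCs against 46.6 ± 22.7 CPM (SD, n = 4), and −2.98 on the log2 scale (edgeR's quasi-likelihood test, adjusted p = 0.104, below that of any of the 10 genes). Mesothelial markers (5 tested, 5 lower, 1 of them at an unadjusted p below 0.05, median −1.31) summed to 288.6 to 506.1 CPM and 275.4 to 929.4 CPM. Smooth muscle and pericyte markers (2 of 7 tested) summed to 2200 to 9248 CPM and 2820 to 6805 CPM, nearly all of it Rgs5. Without Rgs5 the other 6 summed to 1.77 to 5.55 CPM in LLRCs and to 4.26, 5.43, 81.5 and 44.0 CPM in the non-LRC libraries. Acta2 had a mean of 0.987 against 14.6 CPM, but its groups overlapped. Its counts were 19, 5, 2 and 11 in LLRCs against 4, 2, 296 and 55. Tagln had a log2 fold change of −3.41 (edgeR's quasi-likelihood test, adjusted p = 0.801). Hepatocyte markers (11 tested, 9 lower, 6 of them at an unadjusted p below 0.05, median −1.52) summed to 3521 to 4321 CPM and 2450 to 7262 CPM, and without Alb to 1430 to 1778 CPM and 943.4 to 4489 CPM. Pecam1, Esam and Icam2 are also carried by platelets or leukocytes, and the sums of 6 platelet markers overlapped, with 2.04 to 4.85 CPM against 0.626 to 12.8 CPM. The 10 leukocyte markers (3 tested, 2 lower and 1 higher) summed to 26.7 to 59.4 CPM against 28.4 to 100.6 CPM, and without Cd74, its most abundant gene, to 2.50 to 6.88 CPM against 4.13 to 25.9 CPM. Among them Fcer1g and Lyz2 were lower in every LLRC library than in any non-LRC library. Fcer1g stood at 0.592 ± 0.517 against 9.13 ± 9.05 CPM (SD, n = 4), which is −3.89 on the log2 scale (edgeR's quasi-likelihood test, adjusted p = 0.319). Ptprc, the gene of CD45, went the other way, with 5, 34, 14 and 59 counts in LLRCs against 0, 0, 0 and 7 (log2 fold change 3.27, edgeR's quasi-likelihood test, adjusted p = 0.957). Cd52, Laptm5, Coro1a and Itgb2 had 0 counts in all LLRC libraries and at most 10 in any non-LRC library. The part of these cells in the members' levels was not tested.

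The tested genes whose levels over the 8 libraries ran closest to each member were found by the root mean square difference of log2 CPM, each gene centred on its own mean, which is a description over libraries that share 4 mice and 2 groups. Closest to Esam were Eng (0.52), Clec14a (0.61) and Acer2 (0.62), and closest to Pecam1 were Fam198b (0.67), Tmem204 (0.68) and Mmrn2 (0.73). Jam2 was nearest to Plxnd1 (0.70), Adgrf5 (0.91) and Cyp1a1 (0.92), and Icam2 to Gpihbp1 (0.76), Gata4 (0.89) and Fbln5 (0.91). Eng, Clec14a, Mmrn2, Plxnd1, Adgrf5 and Gpihbp1 are known from endothelium. The nearest genes of Jam3 were Scarf1 (0.76), Pxdc1 (0.82) and Serpina3f (0.83).

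This distance grows with a gene's own spread, so that members with small differences between libraries have closer neighbours by construction. The median distance to all tested genes was 0.77 for F11r and 0.93 to 1.01 for Vcam1, Cxadr and Icam1, against 2.00 to 3.10 for the other 5 tested members. F11r ran with Itih2 (0.09), Eif3k (0.11) and Copz1 (0.11), and Cxadr with Tm2d1 (0.14), Etl4 (0.15) and Zfp106 (0.15). Icam1 ran with Gm14127 (0.09), Aes (0.20) and Gm3756 (0.21), and Vcam1 with Rpn2 (0.22), Zfp410 (0.22) and Trafd1 (0.23). No member was among the 3 nearest genes of another member.

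The partners of these molecules were examined as a list of 49 related genes, of which 35 were tested. None of the 35 (0) passed the adjusted threshold of edgeR's quasi-likelihood test. At an unadjusted p below 0.05, 2 stood out, 1 lower and 1 higher in LLRCs, beside 3.56% and 1.6% of all tested genes. In all 14 were lower and 21 higher in LLRCs, and the median log2 fold change was 0.16, beside −0.01 over all tested genes. DESeq2, edgeR's exact test and limma also called 0 of them.

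Among other adhesion molecules with immunoglobulin domains (12 of 21 tested, 5 lower and 7 higher, median 0.09), Alcam, which encodes CD166 and is carried by biliary cells, averaged 425.3 ± 90.5 CPM (SD, n = 4) among LLRCs against 372.9 ± 223.3 CPM, which is 0.19 on the log2 scale. Nectin2, an adherens junction molecule, had a log2 fold change of 0.06 and Nectin3 of −0.43. For Nectin3 the counts were 342, 198, 341 and 168 in LLRCs against 828, 21, 204 and 146, with the non-LRC library of JV602 the highest. Pvr, the poliovirus receptor homologue of the nectin family, stood at 13.3 ± 4.17 CPM against 35.2 ± 41.2 CPM, with a log2 fold change of −1.40 (edgeR's quasi-likelihood test, adjusted p = 1.0). Its non-LRC mean was set by JV621, at 96.5 CPM, and was 14.8 ± 6.98 CPM (SD, n = 3) without that library.

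The cytoplasmic partners, scaffold, polarity and actin-linker genes of junctions, were all measured (19 of 19 tested, 6 lower and 13 higher, median 0.19). Tjp1, the scaffold ZO-1, had a log2 fold change of −0.45 and its relative Tjp3 of 0.85, while the polarity genes Pard6g, Pard6a and Pard3b had 1.16, −0.79 and −1.07 and the scaffold Mpdz 0.99, all with an adjusted p of 1.0 with edgeR's quasi-likelihood test. Msn, which encodes moesin, a linker of ICAMs to actin that is abundant in endothelium and leukocytes, averaged 17.7 ± 9.96 CPM among LLRCs against 73.9 ± 67.3 CPM (SD, n = 4). The groups overlapped, and without the non-LRC library of JV621, at 172.3 CPM, the non-LRC mean was 41.1 ± 18.4 CPM (SD, n = 3). The log2 fold change of Msn was −2.06 (standard error 0.68, adjusted p = 0.688 with edgeR's quasi-likelihood test), while its relatives Ezr, the ezrin gene of epithelia, and Rdx had 0.09 and 0.19.

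Of the integrin genes whose products bind these molecules, 4 of 9 were tested (3 lower and 1 higher, median −0.33). Itgb2, the shared chain of the leukocyte receptors of ICAM-1 and ICAM-2, had 0 counts in all 8 libraries, and Itga4, a chain of the VCAM-1 receptor, had 0 counts in the 4 LLRC libraries and 0, 0, 0 and 14 in the non-LRC libraries. Itgb1 was high in both groups, at 381.4 ± 48.1 CPM for LLRCs against 474.1 ± 87.6 CPM. Itgav stood at 97.3 ± 27.4 CPM against 50.4 ± 20.9 CPM, 0.95 higher on the log2 scale (standard error 0.39, adjusted p = 0.917 with edgeR's quasi-likelihood test).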

How the data were processed

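RNA-seq was measured in 8 libraries of sorted cells. The authors counted aligned reads on exons of GRCm38.p4 with HTSeq, without strand, and deposited raw counts for 46603 genes. The aligner was not given in the sources used here. A second deposited table holds the authors' edgeR 3.2.4 comparison (fold changes, average abundance, p-values and false discovery rates) and was not used.

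Here library sizes were scaled by TMM, genes were filtered with filterByExpr, and the quasi-likelihood test of edgeR 4.0.16 (R 4.3.3) set 4 LLRC libraries against 4 non-LRC libraries (group as the only term, Benjamini-Hochberg threshold 0.05). CPM are counts divided by the scaled library size times 1000000. Single genes and log2 ratios of counts plus 0.5 were tested with exact two-sided permutation tests over libraries, and p-values of single members are not adjusted for the 10 tested. DESeq2 1.42.0, limma 3.58.1, other scalings, no filter, a block for the mouse and leaving out each library were alternatives. The 95% intervals of fold changes come from the fit and include the spread between libraries, whereas limits of 3 counts cover counting error only.

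The labels name the mouse of each library, which pairs the libraries. Across genes, the residuals of both libraries of a mouse around the group averages had correlations of 0.0982, 0.0514, 3.52e-05 and 0.152. Each p-value measures the spread between these libraries.

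The members, the related genes and the marker lists (endothelial, cholangiocyte, hepatocyte, leukocyte, platelet, stellate cell, smooth muscle, mesothelial and pancreatic acinar) were chosen with earlier results of these data known. All members are named, with the 4 lowest and 4 highest related genes by log2 fold change, others of 1 role with their value, and the 3 nearest genes of each tested member. Symbols and coordinates came from GENCODE M21 for 46091 of the 46603 identifiers. RefSeq promoters (GRCm38.p6, 250 bases before to 50 after the start) were matched for 3 members (F11r, Mcam and Icam1). None of these held, on either strand, the ETS-like GGAAGT, the GATA-like AGATAA, the NF-kB-like GGGNNTTCC or the E-box CACGTG, which 23.8%, 11.2%, 5.82% and 7.15% of 32851 promoters held. Only these exact strings were searched, so sites that vary from them were missed, and their absence does not show that a promoter lacks such a site.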

Additional observations from a re-analysis of the deposited data

Results flagged for a closer look

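Jam2 in the non-LRC library of JV621, at 1422 CPM (6808 counts), lay far from the other non-LRC libraries, which were at 115.5, 145.2 and 133.2 CPM, with a gap to the nearest of them of 0.977 of the whole range of the group. The same test of the highest and the lowest library was made in 20 groups, the 10 genes in LLRCs and in non-LRC cells, and singled out 1. Chance gives about 1 in 20 groups. The summed endothelial markers were also highest in that library of all 8, at 1481 CPM, while Jam3 and Mcam had 1 and 0 counts in it. The cause was not tested.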

How the results depend on the processing

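Over 17 other settings of the fit, log2 fold changes of the 9 tested members kept their sign, with 1 exception. Icam1 was 0.035 without the non-LRC library of JV624, and ranged from −0.75 to 0.035 with each library left out. Jam2 ranged from −6.20 to −4.03, Esam from −3.88 to −2.65, Pecam1 from −5.18 to −3.89 and Icam2 from −4.15 to −3.38. DESeq2 called 221 genes and 3 members, edgeR's exact test without a filter 115 genes and 4 members, and the quasi-likelihood test without the filter 11 genes and 0 members. With each library left out, 0 to 6 genes passed (6 with non-LRC JV602 out) and 0 members. The cause of these differences in count was not tested. With the replicate block (mouse), 0 genes and 0 members were called. Jam2, Pecam1, Icam2 and Esam then had −5.26, −4.825, −4.154 and −3.182 (edgeR's quasi-likelihood test, adjusted p = 0.194, 0.293, 0.654 and 0.311). In that test no member was called with or without the block, and the block was not run with DESeq2 or the exact test. The ratio Vcam1 over Icam1 was 0.14 without the non-LRC library of JV6314, and ranged from −0.63 to 0.14 with each library left out. The sign-flip test of the ratios over 4 mice cannot go below 0.125. Leaving out both libraries of JV621 or of JV602 was chosen after seeing the data and called 0 members. Depth limits Mcam, Jam3 and Icam2, with 27 counts or fewer in each LLRC library.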
